A study of Mus musculus with 26 samples.

Results

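Peaks in gene deserts were taken from 18 lists of accessible regions in mouse pluripotent cells. A peak was called a desert peak when it lay on an autosome and more than 200 kb from the span of any protein-coding gene of the GRCm38 annotation. Because the deposited lists differ in length, each was shortened to its strongest 8044 peaks by −log10 p, as many as the shortest list holds. At this equal list length 3756 of 141354 autosomal peaks were desert peaks, and after merging overlapping peaks they formed 1362 of 24326 autosomal regions. In the lists as deposited they were 14028 of 349600 autosomal peaks and 5042 of 65031 regions. The rule used position only, so accessibility, width, rank and sharing were free to vary.

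The assay was ATAC-seq, where the transposase Tn5 cuts open chromatin and leaves sequencing adapters there. The series asks how formative stem (FS) cells stand to naive embryonic stem (ES) cells and to primed epiblast stem cells (EpiSCs). The 6 groups had 3 libraries each: FS1 at passage 21 and FS2 at passage 29, both mouse formative stem cells in A3XR medium; EpiSC_AF at passage 22 in AF medium; EpiSC_AFX1 at passage 14 and EpiSC_AFX2 at passage 16, both in AFX medium; and ES at passage 16 in 2iL medium. No allele or treatment other than the medium is given for these groups. The type FS joined FS1 with FS2, and the type EpiSC_AFX joined EpiSC_AFX1 with EpiSC_AFX2. ES was represented by 1 line at 1 passage, and the labels do not say whether the libraries of a group came from separate cultures, so each p measures the spread between these libraries, which may be technical.

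Gene deserts are long stretches of the genome without protein-coding genes. Some flank regulators of development and hold enhancers that act over long distances, and others flank large neuronal adhesion genes or hold few known elements. Deserts are often rich in repeats and late in replication, and they can also hold genes for long non-coding RNAs (lncRNAs) and the segment arrays of immune receptor loci, which are not counted as protein-coding genes here.

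Between the first and the last protein-coding gene of each autosome, 19.7% of the sequence was desert by this definition, in 737 intervals with a median length of 0.359 Mb. Desert peaks made up between 1.58% and 6.996% of the autosomal peaks of a list. An equal-length region lay in 435 of the 737 intervals. Of the 1362 regions, 131 overlapped the span of an lncRNA gene (9.62%), 14 that of a V segment, 3 that of a snoRNA gene and 20 that of a pseudogene. The gene table gives spans only, so exons and introns of these genes were not told apart.

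The desert regions that overlapped a window at a transcription start of an annotated lncRNA are the ones for which a sequence could be shown. There were 13 such genes, with 14 start windows, among the 1023 lncRNA start windows that lie in deserts (of 11311 on autosomes). The overlap was 61 to 300 of the 300 bases, and not every region reached the start itself. Each window runs from 250 bases before to 50 bases after the start, as RefSeq gives it on GRCm38.p6, and is written in the direction of the gene. Capitals mark 4 motifs searched on both strands: the GC box GGGCGG, the letters CCAAT, the TATA letters TATAAA and the octamer ATTTGCAT that POU factors are known to bind. The 5 windows shown differ in which lines held the region at equal list length, the setting of the counts below. In the deposited lists the D230030E09Rik region was in all 3 libraries of every line but FS2, which had 0. The Gm31415 region was then also in 3 EpiSC_AFX2 lists and 1 EpiSC_AF list. That of Gm33022 was also in 1 EpiSC_AF and 1 EpiSC_AFX2 list, and that of AI197445 was still in no ES list.
Gm26901, chr1:7398047-7398346, minus strand, held by 17 of 18 lists: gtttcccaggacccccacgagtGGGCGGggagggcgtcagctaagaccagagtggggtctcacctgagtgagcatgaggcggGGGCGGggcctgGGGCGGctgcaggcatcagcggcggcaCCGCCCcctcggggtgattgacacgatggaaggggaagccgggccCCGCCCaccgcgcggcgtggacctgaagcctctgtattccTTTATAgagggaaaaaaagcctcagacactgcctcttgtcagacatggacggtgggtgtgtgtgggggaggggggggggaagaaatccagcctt
AI197445, chr13:107469572-107469871, plus strand, held by 11 lists and by no ES list: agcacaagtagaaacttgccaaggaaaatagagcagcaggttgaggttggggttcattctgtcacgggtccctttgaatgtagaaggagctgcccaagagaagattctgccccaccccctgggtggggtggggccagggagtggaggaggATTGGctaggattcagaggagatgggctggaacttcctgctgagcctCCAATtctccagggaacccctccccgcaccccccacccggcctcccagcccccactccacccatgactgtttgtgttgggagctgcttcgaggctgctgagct
Gm33022, chr14:19311640-19311939, minus strand, held by all 6 FS lists, 1 ES list and no EpiSC list: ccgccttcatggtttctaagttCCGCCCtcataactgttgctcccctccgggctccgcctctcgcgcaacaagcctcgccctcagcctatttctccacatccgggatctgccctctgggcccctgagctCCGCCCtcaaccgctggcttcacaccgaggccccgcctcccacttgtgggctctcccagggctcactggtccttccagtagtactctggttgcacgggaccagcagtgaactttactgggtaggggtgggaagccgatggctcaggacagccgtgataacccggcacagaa
D230030E09Rik, chr12:118530144-118530443, minus strand, held by all 3 ES lists and 1 EpiSC_AFX2 list: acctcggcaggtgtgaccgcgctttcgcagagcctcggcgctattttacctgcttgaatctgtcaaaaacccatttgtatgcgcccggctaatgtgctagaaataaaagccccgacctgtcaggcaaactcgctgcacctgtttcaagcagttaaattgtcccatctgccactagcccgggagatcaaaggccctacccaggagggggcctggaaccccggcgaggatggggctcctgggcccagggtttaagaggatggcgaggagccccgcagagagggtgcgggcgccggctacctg
Gm31415, chr3:49062087-49062386, plus strand, held by all 3 FS1 lists, 1 FS2 list and no other list: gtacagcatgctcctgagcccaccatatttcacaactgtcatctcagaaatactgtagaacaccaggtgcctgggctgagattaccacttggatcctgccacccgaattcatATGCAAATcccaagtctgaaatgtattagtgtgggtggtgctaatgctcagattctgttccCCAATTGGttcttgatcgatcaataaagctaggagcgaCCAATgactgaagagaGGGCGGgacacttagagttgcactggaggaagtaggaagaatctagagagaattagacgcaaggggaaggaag
The Gm26901 window had 65.7% G and C and 18 CpG pairs, with 5 GC boxes and 1 TATA match. The Gm33022 window held 2 GC boxes and 16 CpG pairs at 62.3% G and C. The D230030E09Rik window had 18 CpG pairs and none of the 4 motifs, while the AI197445 window had 4 CpG pairs and 2 CCAAT matches. The Gm31415 window was the only one of the 5 with the octamer, beside 1 GC box and 3 CCAAT matches, a pair of which overlap on opposite strands. Among all 11588 lncRNA windows of the same length, 16.3% held a GC box, 36.0% CCAAT, 15.5% TATAAA and 1.87% the octamer, with a median of 48.3% G and C and 4 CpG pairs. A match is a description of the letters and not a binding site.

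At equal list length each ES list held more desert peaks than any other list. The share of autosomal peaks in deserts was 5.93%, 6.11% and 6.996% in the 3 ES libraries. It was 1.73%, 1.71% and 1.58% in FS1 and 2.01%, 1.72% and 1.87% in FS2. The EpiSC_AF libraries had 2.08%, 2.17% and 2.22%. The EpiSC_AFX1 libraries had 1.73%, 1.66% and 1.74%, and those of EpiSC_AFX2 had 1.75%, 2.93% and 2.02%. All 3 ES libraries thus lay above all 15 others, and the groups of FS and EpiSC_AFX overlapped. In numbers of peaks, ES had 462, 477 and 544 desert peaks, while the other libraries had between 124 and 229. The longer deposited lists of other lines held more desert peaks than ES, at 807 to 1421 in FS1 and 1092 to 1489 in EpiSC_AFX2 against 477 to 739 in ES.

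ES, at 6.35% ± 0.568 (SD, n = 3), exceeded FS, at 1.77% ± 0.1497 (SD, n = 6), by 4.58 percentage points, a 3.59-fold share (exact permutation test over libraries, two-sided, p = 0.0119, the smallest p that 84 assignments allow, adjusted p = 0.0179 over 3 comparisons). ES exceeded EpiSC_AFX, at 1.97% ± 0.484 (SD, n = 6), by 4.38 points, a 3.22-fold share, with the same p and adjusted p in the exact permutation test. The share of FS was lower than that of EpiSC_AFX by less than the spread between libraries (difference −0.20 points, exact permutation test, adjusted p = 0.437). The second EpiSC_AFX2 library stood apart with 229 desert peaks against 137 and 159 in the other two. Without it ES exceeded EpiSC_AFX by 4.57 points (adjusted p = 0.0268 by the exact permutation test), and the difference between FS and EpiSC_AFX was −0.01 points.

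**Figure D1:**
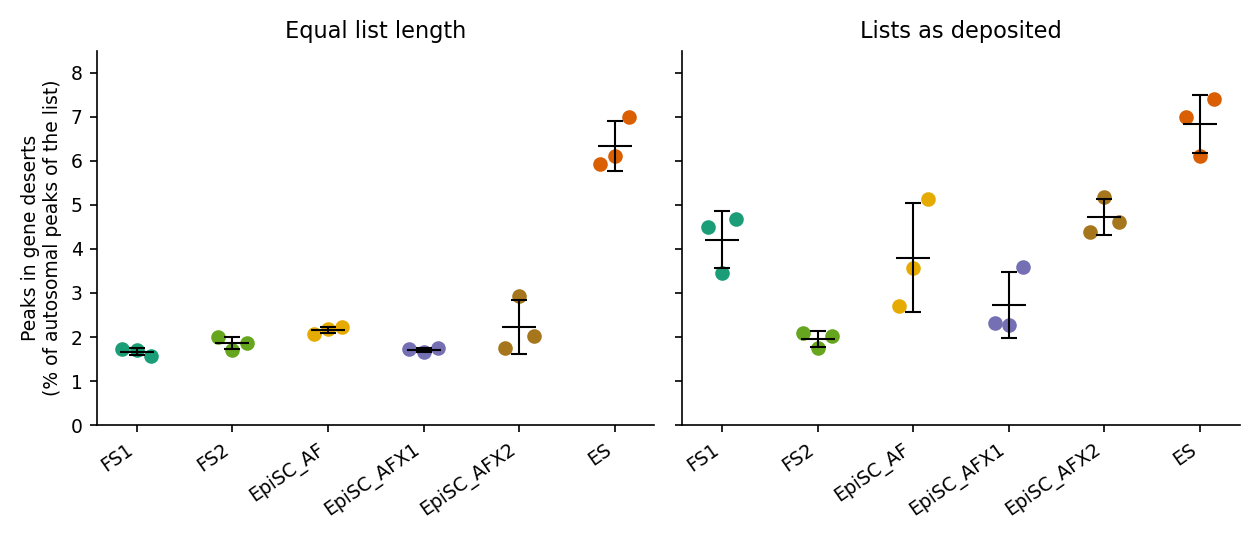
Share of autosomal peaks in gene deserts (y axis, percent) for the 6 lines (x axis), at equal list length (left) and in the lists as deposited (right). Each point is a library, and the black lines give the mean and SD of 3 libraries. The ES libraries lie between 5.93% and 6.996% on the left and between 6.11% and 7.41% on the right.

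The weakest peak kept at equal length had a −log10 q of 1.01 to 1.52 in ES, 1.99 to 2.47 in FS2 and 3.38 to 6.62 in the other libraries, so the ES and FS2 lists reach weaker peaks by the authors' own measure. The part of this in the higher ES share was not tested, but the share could be read along the list and above a minimum −log10 q. In all 8 bins of 1000 ranks every ES library exceeded every other library. In the strongest 1000 peaks, ES had between 7.50% and 8.11% desert peaks and the other libraries between 2.03% and 6.87%, with the highest of these in FS2, whose mean was 6.17%. In ranks 1001 to 2000 the gap was narrow, at 2.15% in the lowest ES library against 2.14% in the highest other. In ranks 7001 to 8000, ES had between 8.24% and 12.4%, and the others between 1.11% and 5.44%. The share was therefore high at both ends of the ES list and lowest in the second bin, where its mean was 3.57%. A fall from the first bin to the second was not particular to ES. The means of the other lines were 2.17% to 6.17% in the first bin and 0.81% to 1.46% in the second. With only the 2000 strongest peaks of each list, ES exceeded FS by 3.01 points and EpiSC_AFX by 3.69 points (adjusted p = 0.0179 for each by the exact permutation test). A minimum −log10 q of 5, which leaves lists of unlike length, gave 5.30 points over FS and 6.14 over EpiSC_AFX (adjusted p = 0.0179 for each, exact permutation test).

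**Figure D2:**
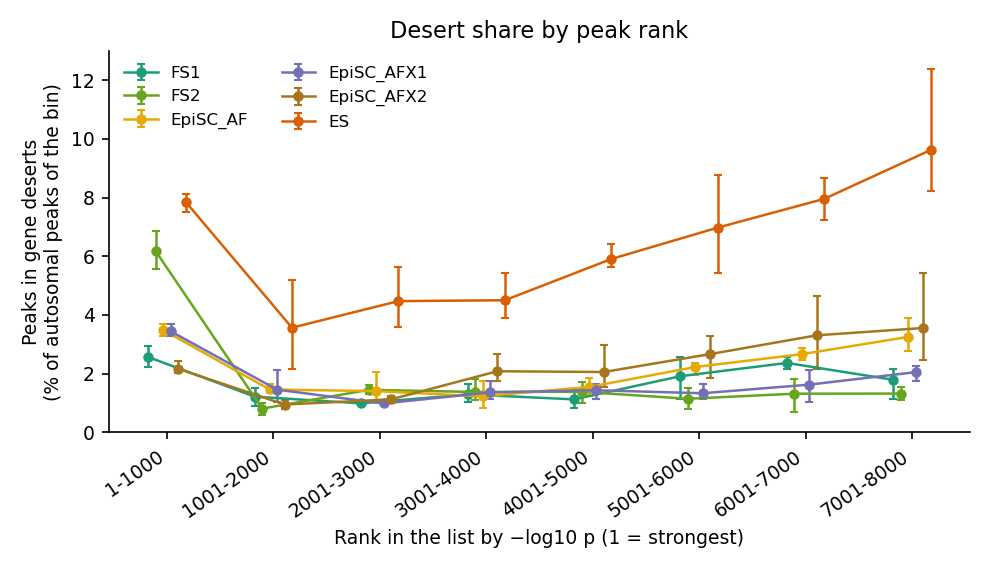
Share of autosomal peaks in deserts (y axis, percent) by rank in the list in bins of 1000 (x axis, strongest first). Points are means of 3 libraries of a line and bars run from the lowest to the highest library. ES lies above the other lines in all 8 bins, and FS2 is second in the first bin at 6.17%.

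In the lists as deposited the ES share was 6.99%, 6.11% and 7.41%. FS1 had 4.50%, 3.46% and 4.67% and EpiSC_AFX2 had 4.39%, 5.18% and 4.61%, all above their equal-length values, while FS2 had 2.08%, 1.75% and 2.02%. EpiSC_AF had 2.70%, 3.57% and 5.14%, and EpiSC_AFX1 had 2.32%, 2.27% and 3.596%. ES again exceeded FS (by 3.76 points) and EpiSC_AFX (by 3.11 points, adjusted p = 0.0179 for both by the exact permutation test), with lists of 8044 to 31263 peaks. Counting genes of every biotype when deserts are defined left an ES excess of 0.56 points over FS and 0.52 over EpiSC_AFX, with the same adjusted p.

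Desert peaks were narrower than the other peaks of the same list in all 18 libraries at equal length. Median widths of desert peaks were 276.5, 286 and 299.5 bp in FS1 against 359.5, 361 and 378 bp for its other peaks. In FS2 they were 239, 218.5 and 213.5 bp against 266, 242 and 267 bp. The FS2 peaks were the narrowest of both kinds, and the 2 kinds kept their order in every FS library. In EpiSC_AF the desert medians were 250, 290 and 292.5 bp against 323, 356 and 355 bp. In EpiSC_AFX1 they were 273.5, 273 and 306 bp against 320, 345 and 378 bp, and in EpiSC_AFX2 305, 313 and 304 bp against 372, 389 and 380 bp. ES had the smallest contrast, with 246.5, 257 and 272.5 bp in deserts and 276, 281 and 279 bp elsewhere. The mean log2 ratio of desert over other median width was −0.26 over the 6 lines, with all 6 below 0. The exact sign-flip permutation test over the line means gave p = 0.03125, the smallest that 64 sign patterns allow, and an adjusted p of 0.0938 over 3 features, so the difference did not pass after adjustment. In the deposited lists desert peaks were wider than other peaks in 2 of the 3 ES libraries, with medians of 290 against 286 bp in the first and 297 against 291 bp in the third.

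The log2 width ratio was −0.16, −0.13 and −0.03 in the ES libraries and between −0.34 and −0.23 in the 6 EpiSC_AFX libraries, which do not overlap. ES exceeded EpiSC_AFX by 0.19 on the log2 scale (−0.11 ± 0.07 against −0.30 ± 0.04, SD, n = 3 and 6, exact permutation test, adjusted p = 0.0357). Desert peaks were thus closer in width to other peaks in ES than in EpiSC_AFX, although the call is lost when any 1 of the 9 libraries is left out (adjusted p 0.0536 to 0.107, exact permutation test). The difference was then 0.15 to 0.22. Fewer libraries leave fewer assignments and so a higher smallest p, and this loss cannot tell a weaker difference from that limit. Against FS, at −0.28 ± 0.10 (SD, n = 6), the ES ratio was higher by 0.17 without passing the test (exact permutation test, adjusted p = 0.107). FS and EpiSC_AFX differed by 0.02 (exact permutation test, adjusted p = 0.684).

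**Figure D3:**
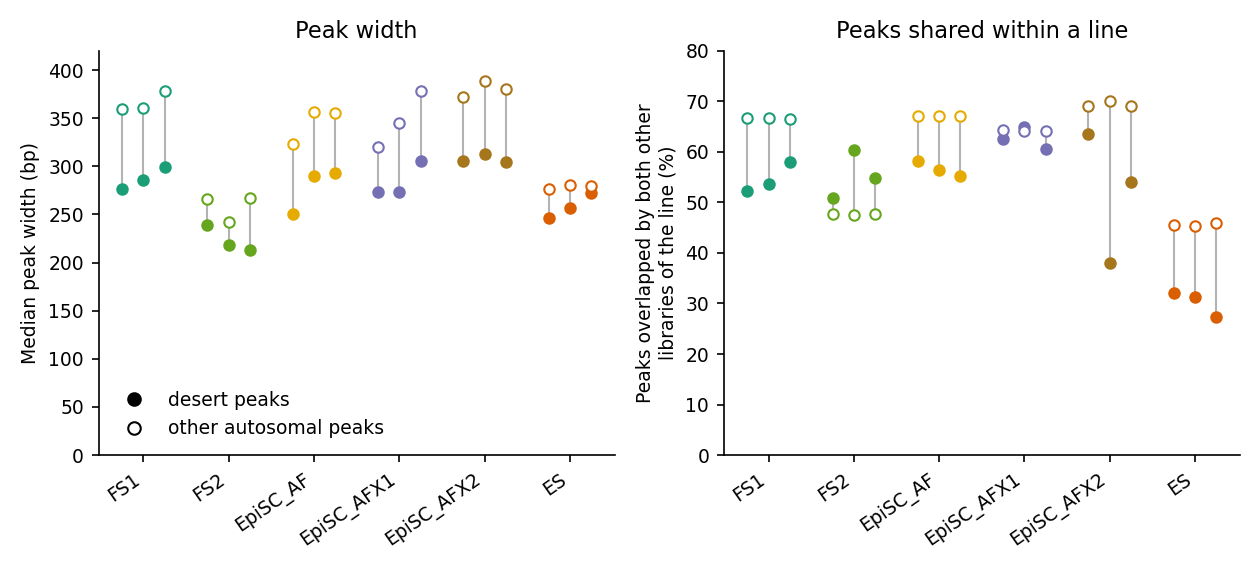
Median peak width in bp (left) and percent of peaks overlapped by peaks of both other libraries of the line (right), for desert peaks (filled) and other autosomal peaks (open) of each of 18 libraries, replicates 1 to 3 from left to right within a line, at equal list length. Filled points lie below open points in all 18 libraries for width and in 14 of 18 for sharing.

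The strength of desert peaks, given as the mean percentile rank by −log10 p within the list (100 is strongest), did not differ from that of other peaks in a common direction. The desert mean was 59.8, 66.8 and 65.7 in FS2, where other peaks averaged 49.6 to 49.8, and it was 52.7 to 55.2 in EpiSC_AFX1. It was 44.9, 43.1 and 47.2 in ES and 44.2, 37.7 and 44.4 in EpiSC_AFX2. EpiSC_AF, at 46.0 to 49.4, and FS1, at 47.9 to 51.3, lay near the middle of their lists. Over the 6 lines the mean difference was 0.37 percentile points, with 2 lines above and 4 below 0 (exact sign-flip permutation test, adjusted p = 0.969). ES was below FS by 11.6 points (45.1 ± 2.05, n = 3, against 56.7 ± 8.57, SD, n = 6), which did not pass (exact permutation test, adjusted p = 0.107). This difference was −0.51 points in the deposited lists and −3.74 without the desert regions held by all 18 lists, neither past the test.

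This ranking joined a strong core with weaker peaks. Between 38 and 40 desert peaks of each library lay in the 36 regions held by all 18 lists. They were 27.9% to 31.5% of the desert peaks of FS1, 24.5% to 29.4% in FS2, and 7.17% to 8.44% in ES. Their mean rank was 97.3 to 97.4 in ES, 96.3 to 97.2 in FS2, 87.5 to 93.4 in EpiSC_AFX1 and EpiSC_AF, and 69.2 to 86.5 in FS1 and EpiSC_AFX2. The remaining desert peaks had mean ranks between 31.4 and 43.3 outside FS2 and between 48.0 and 54.7 in FS2.

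At equal length desert peaks recurred least in ES. In the 3 ES libraries 32.0%, 31.2% and 27.4% of desert peaks were overlapped by both other ES libraries, against 45.5%, 45.3% and 45.9% of its other peaks. In FS1 the values were 52.2%, 53.7% and 58.1% against 66.5% to 66.6%, and in EpiSC_AF 58.3%, 56.5% and 55.2% against 67.1% to 67.2%. FS2 went the other way, with 50.9%, 60.3% and 54.7% in deserts against 47.5% to 47.7% elsewhere. EpiSC_AFX1 had 62.5%, 64.9% and 60.6% against 64.04% to 64.2%, a difference within its spread. In EpiSC_AFX2 the second library had 38.0% and the other two 63.5% and 54.1%, against 69.0% to 70.1%. The mean difference over lines was −8.18 points, lower in deserts, and it was below 0 in 14 of 18 libraries and 5 of 6 lines (exact sign-flip permutation test, adjusted p = 0.141). The deposited lists, which differ in length, gave −21.3 points (adjusted p = 0.0469 by the exact sign-flip permutation test).

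ES was also lowest in base pairs in common at equal length. The Jaccard index, shared over joint length of the desert peaks of a pair of libraries, averaged 0.273 ± 0.003 (SD, 3 pairs) within ES. It was 0.558 ± 0.037 within FS1, 0.628 ± 0.026 within FS2, 0.577 ± 0.022 within EpiSC_AF, 0.602 ± 0.039 within EpiSC_AFX1 and 0.493 ± 0.056 within EpiSC_AFX2 (SD, 3 pairs each). Between ES and the other lines it was 0.175 to 0.230, and between pairs of the other 5 lines 0.375 to 0.545. Desert peaks of EpiSC_AFX1 and FS2 thus overlapped more between the lines (0.539 ± 0.029, SD, 9 pairs) than those of ES did within ES. ES was not the lowest in the deposited lists, where the index averaged 0.255 within ES, 0.239 within FS1, 0.282 within EpiSC_AF, 0.319 within EpiSC_AFX2, 0.322 within EpiSC_AFX1 and 0.404 within FS2. The gap of within-type over between-type pairs was 0.267 for ES and FS and 0.270 for ES and EpiSC_AFX (exact permutation tests, one-sided for a larger gap, adjusted p = 0.0179 for each). For FS and EpiSC_AFX the gap was 0.038 (exact permutation test, adjusted p = 0.0260). Its within-type pairs include pairs of libraries of the same line. Pairs of unlike lines within a type averaged 0.455 (FS1 and FS2) and 0.471 (EpiSC_AFX1 and EpiSC_AFX2). Line pairs between these types averaged 0.375 to 0.539. The test did not keep lines together, so it cannot tell likeness within a type from likeness within a line. In the deposited lists the gaps were 0.074 for ES and FS, 0.126 for ES and EpiSC_AFX and 0.037 for FS and EpiSC_AFX (adjusted p = 0.0346 for each, exact permutation test). At equal length this last call was lost without the second or the third EpiSC_AFX2 library, with gaps of 0.026 and 0.031 (adjusted p = 0.0671 and 0.0584, exact permutation test). Each gap with ES pools the ES pairs with the more numerous pairs of the other type. Sets of unlike size also limit the index, and ES had 462 to 544 desert peaks against 124 to 229 in the other libraries. The part of either in the gaps was not tested, and no such index was computed for peaks outside deserts.

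Most desert regions were private to a list. At equal length 790 of the 1362 (58.0%) had a peak in 1 of the 18 lists, against 33.5% of the other autosomal regions. At the other end 36 (2.64%) had a peak in all 18, against 6.28% of the other regions. By lines, 1034 regions (75.9%) belonged to 1 line and 60 (4.41%) to all 6. The number of lines was not counted for the other autosomal regions. Regions in 1 list had a median width of 216.5 bp and those in all 18 of 395.5 bp. These are spans of merged peaks, which can only grow as peaks of more lists are merged, so no difference is read from them. As deposited, 54.0% of desert regions and 38.3% of other regions were in 1 list.

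**Figure D4:**
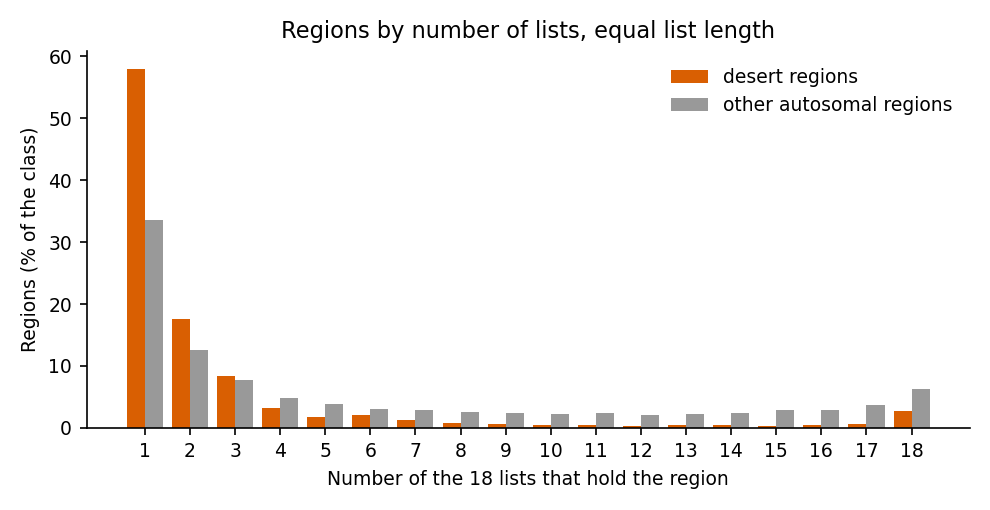
Percent of desert regions and of other autosomal regions (y axis) by the number of the 18 lists that hold them (x axis), at equal list length. Of desert regions 58.0% are in 1 list and 2.64% in all 18, against 33.5% and 6.28% of the other regions.

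At equal length ES accounted for most of the private regions. Its libraries held 979 desert regions, of which 784 (80.1%) were in no other line, while the other lines held 199 to 288 regions with 10.6% to 28.1% in no other line. These shares were not computed outside deserts, so they do not tell a trait of deserts from one of the ES lists. Outside deserts ES peaks also recurred least within the line (mean 45.6%, against means of 47.7% to 69.4%). Among deposited lists ES had 516 of 1228 regions (42.0%) in no other line, against 911 of 2265 (40.2%) in FS1 and 903 of 2292 (39.4%) in EpiSC_AFX2. Of the 979, 635 (64.9%) were in 1 ES library, 197 in a pair and 147 (15.02%) in all 3. Private regions numbered 175, 176 and 227 in the ES libraries, 47 in the second EpiSC_AFX2 library and 2 to 20 in the remaining 14. For the 784, the longer deposited lists were also searched: 408 (52.0%) had a peak in a deposited list of another line, 376 had none, and 9 had one in 9 or more other lists.

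The regions held by all 18 lists included peaks near the top of every list. The region at chr12:97061370-97061848, 1140 kb from Galc and 1276 kb from Flrt2, a fibronectin leucine-rich transmembrane adhesion protein, had a mean percentile rank of 99.99, and every library lay between 99.98 and 100. At chr6:9889877-9890221, 640 kb from Nxph1, which encodes a neurexin ligand, every library ranked between 99.90 and 99.95. The next were chr3:5860284-5860887, 282 kb from the peroxisome biogenesis gene Pex2, with a mean rank of 99.80, and chr5:60042657-60043152, 1766 kb from G6pd2 and 1909 kb from the protocadherin gene Pcdh7, with 99.78. Others of the 10 leading regions were chr2:57629424-57629794 near Gpd2 (99.64), chr14:86198924-86199212 near Diaph3 (99.46) and chr8:15519724-15520177 near Csmd1 (99.19). None of these overlapped an annotated gene of any biotype, and the groups do not part by them.

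Neighbouring regions formed 2 blocks. On chromosome 2, 4 regions held by all 18 lists lay between 98662206 and 98667359, about 1031 kb from Lrrc4c, a postsynaptic adhesion gene, with mean ranks of 99.60, 91.6, 99.11 and 99.76. On chromosome 9, 5 lay between 3000010 and 3038374, at the start of the assembled sequence and 297 kb or more before Alkbh8, with a summed width of 18249 bp and mean ranks of 55.5 to 91.7. Both places are known from other mouse data as repeat-rich stretches where reads pile up in many assays. No list of such regions was used here, so how many of the 36 belong to them was not tested. Without the 36 regions the ES excess in desert share was 4.59 points over FS and 4.38 over EpiSC_AFX (adjusted p = 0.0179 for each, exact permutation test), as large as with them. Only desert regions were left out there, a choice made after seeing the data.

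The regions farthest from a gene that 9 or more lists held were also in all 18. The farthest, chr1:102628132-102628397, lay 2138 kb from Cntnap5b and 2140 kb from the cadherin gene Cdh20, with ranks of 96.1 to 99.4 in the 18 libraries. The region at chr14:90911117-90911347, 2102 kb from the protocadherin gene Pcdh9, ranked 85.6 to 99.3, lowest in the third FS1 library and next in the third EpiSC_AFX2 library (87.7). In the ES libraries these regions ranked 98.7 to 99.0 and 99.1 to 99.2.

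Regions held by every library of a type and by none of the other were counted next. Over all autosomal regions 1.85% were held by every ES and no FS library, and of the desert regions 70 (5.14%). The reverse, every FS and no ES library, held for 1.53% of all regions and 3 desert regions (0.22%). Every ES and no EpiSC_AFX library held 2.2% of all regions and 68 desert regions (4.99%), and the reverse 2.15% of all and 7 desert regions (0.514%). Deserts thus took 15.6% of the regions that parted ES from FS on the ES side and 0.809% on the FS side. Each of the ES counts rests on all 3 ES libraries: with 2 of them they ranged from 122 to 131 against FS and from 117 to 128 against EpiSC_AFX. Without the cut to equal length, 81 desert regions (1.61%) were in every EpiSC_AFX and no ES library, against 6.3% of all regions, and 46 (0.912%) in the reverse, against 0.366% of all, so the larger count was then on the EpiSC_AFX side.

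A total of 56 desert regions were held by every ES library and by none of the 15 others (4.11%, against 1.47% of all autosomal regions). Their median width as merged regions was 623 bp and their median rank 43.3. Those with the highest ranks were chr3:48172532-48172866, 1570 kb from the protocadherin gene Pcdh18, with ranks of 94.6, 91.0 and 94.7 in the ES libraries. Next came chr3:111692182-111692905, 1441 kb from the arginine methyltransferase gene Prmt6, with 95.4, 90.2 and 91.4. The last was chr12:68934037-68934334, 223 kb from the ribosomal protein gene Rps29, with 84.8, 95.3 and 84.9. In the longer deposited lists these 3 were also found in 4, 3 and 2 libraries of other lines. Of the 56, 47 had a peak in some deposited list of another line and 9 had none, and none had one in 9 or more. Taken directly from the deposited lists, 22 desert regions were in every ES and no other library (0.436%), beside 0.192% of all regions.

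The reverse set was small. At equal length 3 desert regions (0.22%) were in all 15 other libraries and in no ES library, against 0.678% of all regions, and all 3 overlapped an lncRNA gene. The region at chr5:111755381-111755667, in the span of E130006D01Rik and 298 kb from Mn1, a transcriptional coregulator gene, had ranks of 67.8 to 96.6 in the 15 libraries. The region at chr2:95448865-95449360, in the span of Gm13794 and 869 kb from Lrrc4c, had ranks of 75.3 to 95.8. The third, chr5:111893893-111894522, lay in the span of Gm29935 in the same desert as the first, between Mn1 and the crystallin gene Cryba4, and had ranks of 34.3 to 51.0 in FS1, 82.1 to 90.7 in FS2 and 20.6 to 86.7 in the EpiSC libraries. A further region of that desert, chr5:112031898-112032535, was in 12 lists and no ES list, and in all 15 deposited lists of the other lines. In all, 6 desert regions were in 12 or more lists without ES, and none of the 6 had a peak in a deposited ES list. The share of all autosomal regions in 12 or more lists without ES was not counted, so the 6 are described only. The other 2 lay near Med13l, on the side of the T-box gene Tbx3, and near the collagen lysyl hydroxylase gene Plod2. The deposited lists held 7 desert regions (0.139%) present in the 15 others and in no ES list, against 1.39% of all regions.

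FS and EpiSC_AFX were parted by few regions anywhere. Every FS and no EpiSC_AFX library held 0.0945% of all regions and 2 in deserts, and the reverse 0.0411% of all and 1 in a desert. The region at chr4:142626871-142627226, 387 kb from Kazn, which encodes a desmosome-associated protein, had ranks of 95.3, 97.4 and 97.3 in FS1 and 74.6, 50.4 and 95.3 in FS2, and of 39.7 in 1 ES library. The other, chr14:19311536-19312408, covers the start of Gm33022 shown above and had ranks of 93.4, 13.3 and 66.4 in FS1 and 27.3, 25.7 and 40.5 in FS2. Both FS groups include weak peaks here, and 1 or 2 deposited lists of the EpiSC lines held a peak in each of these regions. The region of EpiSC_AFX, chr18:76595149-76595751, 251 kb from the neuronal corepressor gene Skor2, was also in all 3 EpiSC_AF libraries and had ranks of 6.89 to 63.7. All 3 deposited FS1 lists held it, so it did not part the types there.

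Regions of every library of 1 line and no other were few outside ES at equal length. There were 2 in FS1, 2 in EpiSC_AF, 3 in EpiSC_AFX2 and none in FS2 or EpiSC_AFX1. Of all autosomal regions, 0.107% were in FS1 alone in this way, 0.037% in EpiSC_AF, 0.111% in EpiSC_AFX2, 0.127% in FS2 and 0.0329% in EpiSC_AFX1. In the deposited lists EpiSC_AFX2 had 31 such desert regions, ES 22, FS1 20, EpiSC_AF 2, EpiSC_AFX1 1 and FS2 none. The shares of all regions were then 0.283% in EpiSC_AFX2, 0.271% in FS1, 0.0308% in EpiSC_AF, 0.04% in EpiSC_AFX1 and 0.00308% in FS2. The counts thus set ES apart at equal length and did not in the deposited lists. The FS1 region at chr4:152886797-152887139, 324 kb from the ciliary gene Nphp4, had ranks of 56.8, 24.4 and 71.4 and remained in FS1 alone in the deposited lists. The second FS1 region, 237 kb from Reep3, had ranks of 22.9, 22.9 and 42.1. The EpiSC_AF regions, near Tmem132c and Castor2, and the EpiSC_AFX2 regions, near Tusc1, Tom1l1 and Vstm2b, had ranks of 1.07 to 57.0. Each of these 5 had a peak in deposited lists of other lines, up to 12 lists in all.

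**Figure D5:**
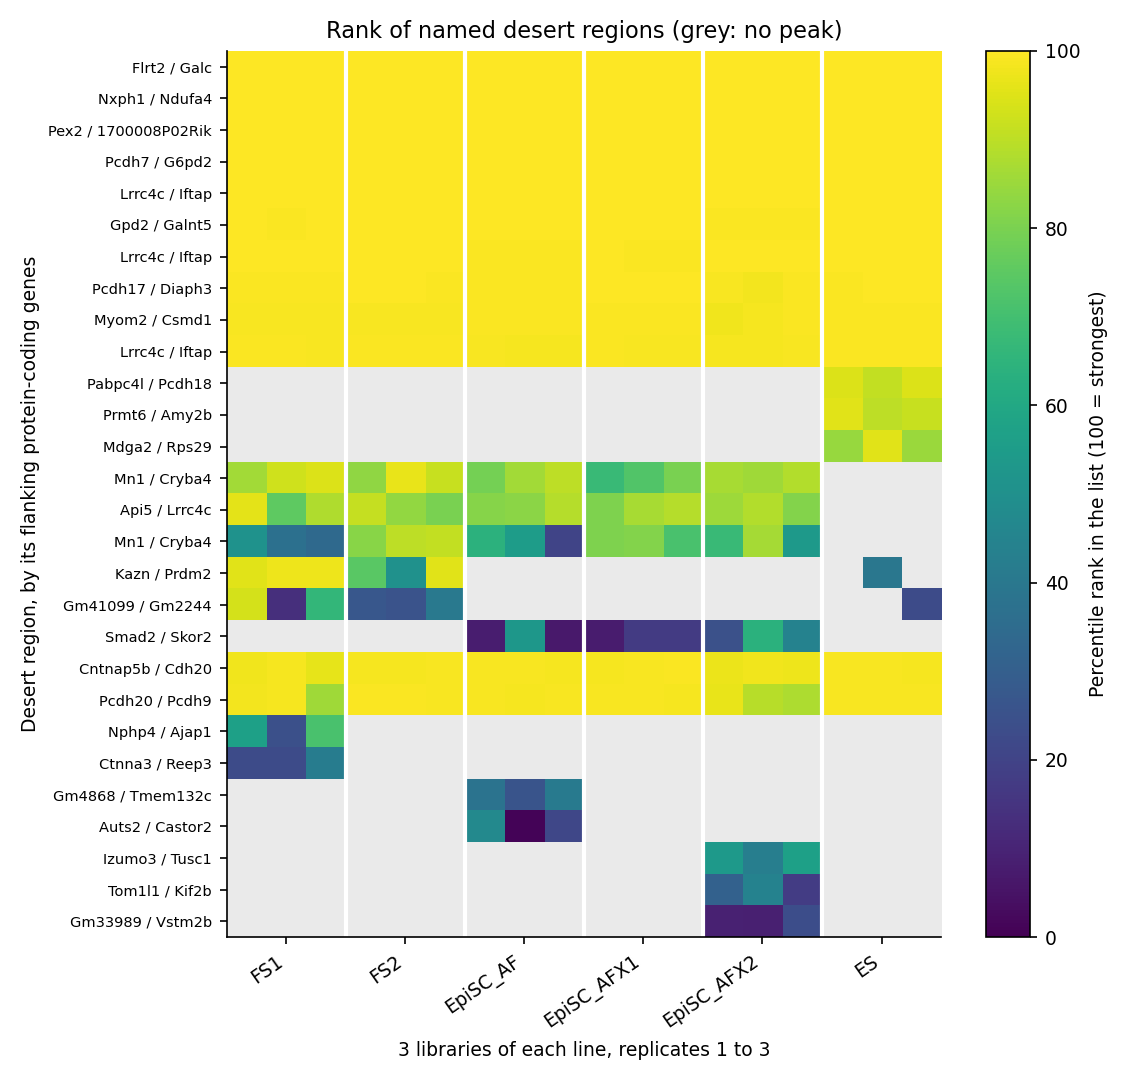
Percentile rank (colour, 100 is the strongest peak of the list) of the named desert regions (rows, labelled by the protein-coding genes to the left and right) in 18 libraries (columns, 3 for each line) at equal list length. Grey marks no peak. The upper 10 rows are held by all 18 lists, followed by 3 rows held by ES alone and 3 held by every list but ES.

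Desert regions lay on every autosome, with 2.80 equal-length regions per Mb of desert between the outer genes. Chromosome 12 had the most per Mb, 3.83, and chromosome 15 the fewest, 1.68. The interval with the most regions was the immunoglobulin heavy chain locus Igh, between Adam6a and Zfp386 on chromosome 12, with 33 regions in 2.101 Mb. ES held 31 of these, FS2 held 3, FS1 and EpiSC_AF held 1 each and the EpiSC_AFX lines none. The kappa light chain locus Igk had 16, with 14 in ES, and the T cell receptor locus Tcra had 8, with 6 in FS2 and none in ES. These loci encode the antigen receptors of lymphocytes. Without the receptor loci, an alternative added after seeing the data, the ES excess was 4.39 points over FS and 4.16 over EpiSC_AFX (adjusted p = 0.0179 for each, exact permutation test).

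The short interval between Ube3a and Snurf on chromosome 7, 0.272 Mb long, had 14 regions, 13 of them in ES. It is part of an imprinted domain that carries arrays of snoRNA genes. The intervals beside Lrrc4c and Iftap and beside Dsel and Cntnap5a had 15 regions each, with 13 and 9 in ES. At equal length an ES region lay in 362 of the 737 desert intervals, against 142 to 191 for each other line. ES also held 979 of the 1362 equal-length desert regions, against 199 to 288 for each other line. The part of this number in the counts by interval was not tested.

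Desert regions were assigned to their nearest protein-coding gene and counted against lists of genes. Of 71 large neuronal and synaptic adhesion genes, 47 were nearest to 184 desert regions, 13.5% of the regions where 13.98% of the desert sequence is nearest to these genes. Of these regions 18 were held by 9 or more lists and 30 by every ES library, 13 of them by ES alone. Over all 1362 desert regions these counts were 95, 147 and 56. Lrrc4c had 14 regions, the contactin-associated genes Cntnap5a and Cntnap5b 12 each, and the cadherin and protocadherin genes Cdh8, Pcdh7, Pcdh9 and Pcdh10 had 9 each. Of the Lrrc4c regions 5 lay in the chromosome 2 block described above, 4 of them in all 18 lists. The share of regions was near the share of sequence.

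Of 91 matched developmental regulators known for flanking deserts, 35 were nearest to 62 regions, 4.55% of the regions against 4.25% of the sequence. The region at chr11:112501785-112502222, 280 kb from Sox9, a regulator of cartilage and gonad development, was in 15 lists, with all 3 libraries of 4 lines, 2 of FS2 and 1 of ES. Near Nr2f1, an orphan nuclear receptor gene, chr13:78427713-78428116 was in 14 lists, with 1 ES library. Near Isl1, a LIM homeodomain gene, chr13:115742170-115742400 was in 14 lists, with all 3 ES libraries and 1 each of FS1 and EpiSC_AFX2. Near Sox6, chr7:115216826-115217564 was in 11 lists and in no ES list. Zeb2 had 5 regions and Auts2 had 4, with the most widely held in 3 lists and 1 list.

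Few desert regions were nearest to genes of the pluripotent states, and little of the desert sequence is nearest to them. The 17 naive genes had 7 (0.514% of the regions, against 0.348% of the sequence), near Tbx3, Klf4, Nr5a2, Sox2 and Tet2. The region of Nr5a2, a nuclear receptor of the naive network, at chr1:137323374-137324199, was 363 kb from the gene and in 17 lists, with all but 1 ES library. The 14 formative genes had 3 (0.220% of the regions, against 0.0429% of the sequence), near Pou3f1 and Dusp6. The 17 primed genes, nearest to 0.0434% of the sequence, had none at equal length. In the lists as deposited the primed genes had 4 (0.0793% of the regions). At equal length no desert region nearest to a naive, formative or primed gene was in all 3 ES libraries.

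The labels were checked against peaks within 1 kb of either end of marker genes at equal length. All 3 ES and none of the other 15 libraries had such a peak at the naive markers Zfp42 and Tbx3, while no library had one at Esrrb. At Tbx3, 13 of the 15 others also had one in the deposited lists. The naive markers Klf4 and Nanog did not set ES apart. At Klf4, 2 ES libraries and 8 others had a peak, and at Nanog 2 ES libraries and 8 others. At Tcf15, a formative marker, all 3 FS1, none of the FS2, all 9 EpiSC and no ES libraries had one, and in the deposited lists all 15 libraries outside ES. Of the other formative markers, Otx2 had none in any library, Fgf5 had one in 1 FS2 and 3 EpiSC libraries, and Pou3f1 in 5 FS, 9 EpiSC and 1 ES libraries. Of the primed markers, T had a peak in 1 EpiSC_AF library, Foxa2 in 1 FS1 library and Mixl1 in none. Eomes had one in 2 FS, 6 EpiSC and 1 ES libraries. These markers therefore did not tell the FS from the EpiSC libraries.

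At Pou5f1, known to be expressed in all pluripotent cells, no ES library and between 1 and 3 libraries of each other line had a peak. At Sox2, the other marker of all pluripotent cells, 2 ES, 1 FS1, 3 EpiSC_AF, 3 EpiSC_AFX1 and 2 EpiSC_AFX2 libraries had one, and 0 of FS2. In the deposited ES lists Pou5f1 had a peak in 1 library and Sox2 in all 3. Of 5 fibroblast markers, 4 had no peak at this length in any library, and Thy1 had one in 8 libraries outside ES. The endoderm markers Sox17, Gata4 and Gata6 and the neural markers Pax6 and Sox1 had none. As deposited, Col1a1 had a peak in 11 libraries, Col1a2 in 10, Twist1 in 6 and Thy1 in 14, all outside ES, and Postn in none. There Gata6 had one in 10 libraries, Pax6 in 4 and Sox17 in 1, all outside ES, and Sox1 in 11 libraries and 1 of ES. Each deposited list outside ES is longer than each ES list, and the part of other cell types in the desert peaks was not tested.

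The peaks nearest to the 200 kb limit are given without a test. Peaks 180 to 200 kb from a gene numbered 383 over all lists, with a median width of 301 bp and a mean rank of 49.6, and those 200 to 220 kb away numbered 252, with a median width of 262.5 bp and a mean rank of 45.1. ES contributed 116 and 88 of these. The ES share was also the highest in each distance class: 3.82% of its peaks lay 200 to 500 kb away, 1.73% lay 500 to 1000 kb away and 0.792% farther, where the highest values of the other lines were 1.52%, 0.477% and 0.246%.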

How the data were processed

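ATAC-seq peaks of 18 libraries were used as deposited, 1 broadPeak list for each library, so peaks were called per sample. Trim Galore, Bowtie, Picard and MACS2 and the build mm10 are named in the submitters' processing notes. Versions, the control and settings are not given in the sources used here. Column 7, a linear ratio (fold enrichment), was computed by the authors. The −log10 p and −log10 q are also the authors' deposited values. They were used only to rank or filter peaks within a list. The files hold no read counts, so depth is unknown and no counting interval is given.

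Scripts ran in Python 3.11.15 with numpy 2.4.6 and pandas 2.3.3. Distances ran to the spans of 20665 autosomal protein-coding genes of a RefSeq table of GRCm38.p6, which is the build mm10. Overlapping or touching peaks were merged, and 1 bp of overlap counted as presence. Exact permutation tests used libraries, or line means for desert against other peaks, with Benjamini-Hochberg adjustment within each family of 3 and a threshold of 0.05. With 3 against 3 libraries p cannot go below 0.1, so single lines were described only. Alternatives changed the distance, list length, ranking, overlap, gene set, −log10 q minimum, replicate block and the libraries used. The functions were tested on simulated data. Libraries of a line shared at most 0.0746% of peaks with identical coordinates. Named regions were the 10 in the most lists, up to 3 for each separated set, the 3 farthest held by 9 or more lists and up to 3 of 1 line alone, by mean rank, with their flanking genes. The regions of 12 or more lists without ES, those beside genes of the lists and the lncRNA windows were picked after their values were seen. Members, gene lists and tests were chosen with earlier results of these data known. The 8 lists of a second set were not used here.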

Additional observations from a re-analysis of the deposited data

Results flagged for a closer look

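Among the 6 EpiSC_AFX libraries the second of EpiSC_AFX2 had a desert share of 2.93% at equal list length, a gap to the next library large enough to set it apart by Dixon's criterion. Chance alone sets apart about 1 in 20 groups by this criterion. It was applied to the share, mean rank, width ratio and sharing of desert peaks. This was done for FS and for EpiSC_AFX, at equal length and as deposited, and no other value was set apart. In the lists as deposited this library was not set apart.

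The lines went opposite ways in 2 comparisons of desert with other peaks, and these differences between lines were not tested. In mean percentile rank, desert peaks lay above other peaks in every library of FS2 (mean 14.5 points) and EpiSC_AFX1 (4.24 points). They lay below in every library of ES (mean −5.41), EpiSC_AF (−1.81) and EpiSC_AFX2 (−8.27). In sharing within the line, desert peaks lay above other peaks in every FS2 library (mean 7.67 points). They lay below in every library of ES (−15.3), EpiSC_AF (−10.5), EpiSC_AFX2 (−17.5) and FS1 (−11.9).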

How the results depend on the processing

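The ES excess in desert share over FS and over EpiSC_AFX kept its direction under the alternatives run, and the exact permutation test passed under all but the replicate block and the removal of an ES library. The 3 similarity gaps also kept their direction. Replicate numbers did not pair the libraries: none of 45 same-numbered pairs of lines had a correlation of deviations above 0.1 (−0.020 to 0.013). With the replicate block the differences were 4.58 and 4.38 points in share (adjusted p = 0.0556 for each, exact permutation test), 0.19 in log2 width between ES and EpiSC_AFX (0.111) and 0.267, 0.270 and 0.038 in the gaps (0.0556, 0.0556 and 0.0648). With this block p cannot go below 0.037 for 3 against 6 libraries. The gap of FS and EpiSC_AFX, with 6 against 6, is not held by that limit (smallest p 0.00926) and also lost its call.

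Leaving out 1 library in turn gave 4.26 to 4.79 points for ES over FS and 4.05 to 4.58 over EpiSC_AFX, and without an ES library no p can go below 0.0357. The width difference of ES and EpiSC_AFX ranged from 0.15 to 0.22, that of FS and EpiSC_AFX from −0.0070 to 0.039 (negative without the first or second FS2 library, −0.0056 and −0.0070), and the gap of FS and EpiSC_AFX from 0.026 to 0.053. Counts of separated desert regions ranged from 70 to 131 (ES, not FS), 3 to 5 (FS, not ES), 68 to 128 (ES, not EpiSC_AFX), 7 to 11 (EpiSC_AFX, not ES) and 1 to 2 (EpiSC_AFX, not FS). Without the second EpiSC_AFX2 library 74 regions were in ES and not EpiSC_AFX.

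The rank of desert against other peaks changed sign, at −1.35 points with a 100 kb limit, −8.53 in the deposited lists and −0.91 when ranked by fold enrichment, and passed in none of them. In the deposited lists the log2 width was −0.28 and sharing −21.3 points, both with an adjusted p of 0.0469 (exact sign-flip permutation test). The rank difference of ES and EpiSC_AFX was 3.96 in the deposited lists and 4.40 without the desert regions of all 18 lists. The width difference of ES and FS passed when ranked by fold enrichment (0.32) and without those regions (0.27), and was −0.061 with genes of every biotype. That setting gave 0.18 for ES and EpiSC_AFX, no longer past the test, and 0.24 for FS and EpiSC_AFX, past it. The latter was −0.036 when ranked by fold enrichment and −0.054 without those regions. The share of FS minus EpiSC_AFX was 0.84 at a −log10 q of at least 5 and 0.67 in the top 2000, neither past the test. The cause of these changes was not tested.

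Separated desert regions at 100 kb numbered 106 (ES, not FS), 7 (FS, not ES), 110 (ES, not EpiSC_AFX) and 12 (EpiSC_AFX, not ES), where more of the genome counts as desert, and at 500 kb 26, 1, 24 and 1, with 0 between FS and EpiSC_AFX in either direction. The deposited lists gave 12 (FS, not ES), 81 (EpiSC_AFX, not ES), 1 (FS, not EpiSC_AFX) and 7 (EpiSC_AFX, not FS). An overlap of 50% gave 35 (ES, not FS), 32 (ES, not EpiSC_AFX), 1 (FS, not EpiSC_AFX) and 0 (EpiSC_AFX, not FS), and ranking by fold enrichment gave 1 and 0 for the last pair. Depth was unknown, so the absence of a peak limits what was called and not what was open.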
